A study of Mus musculus with 36 samples.

Results

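The miR-200 family, made up of miR-200a, miR-200b, miR-200c, miR-141 and miR-429, was followed in mouse CD4 T cells by small RNA sequencing. Its 7 members were taken by name from the 1966 mature microRNA (miRNA) names of the deposited count files: mmu-miR-200a-3p, mmu-miR-200a-5p, mmu-miR-200b-3p, mmu-miR-200b-5p, mmu-miR-200c-3p, mmu-miR-141-3p and mmu-miR-429-3p, where mmu marks the mouse. The 22 libraries came from CD4+ TCRb+ T cells sorted from the spleen of C57BL/6J mice, of which 11 were wild type (WT) and 11 carried the genotype AGO134-/-, a loss of the Argonaute proteins AGO1, AGO3 and AGO4, which, with AGO2, bind miRNAs and carry them to target mRNAs. Cells were naive (day 0; 4 WT and 4 knockout libraries), or had been cultured towards the T helper 2 (Th2) fate for 7 days (4 and 4) or 14 days (3 and 3). The series text calls the WT and knockout mice littermates. The labels give no age and do not name separate animals for the replicates, so a p-value here reflects the spread of these libraries, which may be technical. Small RNA counts do not include the Ago mRNAs, and no check of the genotype labels was made.

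The miR-200 family is best known from epithelial cells, where it keeps the transcription factors ZEB1 and ZEB2 low and thereby keeps cadherin-based junctions in place. ZEB1 and ZEB2 are also expressed in T cells. Its precursors are made from separate loci, and each hairpin yields a 5p and a 3p strand, of which usually a single one is kept in an Argonaute protein as the guide. A guide finds its targets mainly through the seed, bases 2 to 8, so members that share a seed are expected to share many targets.

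The 7 mature sequences are shown because the results below separate members that share a seed or share a precursor locus. They are written 5′ to 3′, with the seed in capitals, and come from RefSeq on build GRCm38.p6, where all 7 members were matched by name.
miR-200b-3p: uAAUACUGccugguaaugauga
miR-200c-3p: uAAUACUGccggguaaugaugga
miR-429-3p: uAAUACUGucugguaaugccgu
miR-200a-3p: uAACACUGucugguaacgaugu
miR-141-3p: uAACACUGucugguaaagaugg
miR-200b-5p: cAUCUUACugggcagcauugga
miR-200a-5p: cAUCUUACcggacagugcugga
The 3p strands fall into a group with the seed AAUACUG (miR-200b-3p, miR-200c-3p and miR-429-3p) and a group with the seed AACACUG (miR-200a-3p and miR-141-3p), and both 5p members share AUCUUAC. Counting from 1 at the 5′ end, miR-200a-3p and miR-200b-3p differ within the seed by C4U, and outside it by U9C, C17U and U22A. Over the 22 positions compared, miR-200b-3p and miR-200c-3p differ at 2 (U11G and A22G), and miR-200a-3p and miR-141-3p at 2 (C17A and U22G). Each pair of seed mates that is nearest in sequence is thus encoded on different chromosomes, and their separate values carry the uncertainty of counting near-identical sequences.

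The hairpins of miR-200b, miR-200a and miR-429 lie within 1846 bases of the minus strand of chromosome 4 (chr4:156053905-156055750, GRCm38.p6). All 3 are in introns of Ttll10, a protein-coding gene on the same strand. The noncoding transcript Gm13648, also on that strand, has Mir200b and Mir200a in an intron and Mir429 over an exon. The hairpins of miR-200c and miR-141 lie within 477 bases of the minus strand of chromosome 6 (chr6:124717914-124718390). Both are in an intron of the noncoding transcript Gm15884, and Mir141 also overlaps an exon of the transcript Gm29008. The nearest protein-coding genes are Phb2, 964 bases away, and Ptpn6, 2317 bases away. The mature miR-200c-3p spans chr6:124718324-124718346 and the mature miR-200b-3p spans chr4:156055685-156055706.

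Levels are given as CPM, counts per 1000000 miRNA counts of a library, with the mean ± SD over the libraries of a group. The libraries held 64264 to 273724 miRNA counts, and 3 counts, the limit that a count of 0 allows, equalled 10.96 to 46.7 CPM. Such floors and all counting intervals cover counting error only. The family took 118 to 982 counts per library and 8268 in all. The shallowest library was naive knockout replicate 4 (64264 counts), which also had the lowest summed family level of the naive libraries. Against the sorted cell type, the summed level of the T cell miRNAs miR-150-5p, miR-181a-5p, miR-142a-5p, miR-155-5p and miR-146a-5p was 108704 CPM ± 2801 (SD, n = 4) in naive WT cells, about 29 times that of the 7 family members.

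The summed family level was highest in naive cells and fell with time in culture. In naive WT libraries 1 to 4 it was 4029, 3656, 3641 and 3545 CPM, and in naive knockout libraries 3779, 3820, 4167 and 2256 CPM. At day 7 it was 920, 1228, 1180 and 1147 CPM in WT and 1017, 958, 1055 and 1065 CPM in knockout. At day 14 it was 596, 625 and 695 CPM in WT and 579, 664 and 767 CPM in knockout. Within each genotype, all naive libraries lay above all day 7 libraries and all day 7 libraries above all day 14 libraries, while WT and knockout overlapped at each time. The WT group mean at day 7 was 30.1% of that in naive cells and at day 14 was 17.2%; in knockout cells the shares were 29.2% and 19.1%. In bulk RNA, fewer cells of a type and less RNA per cell cannot be told apart.

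**Figure D1:**
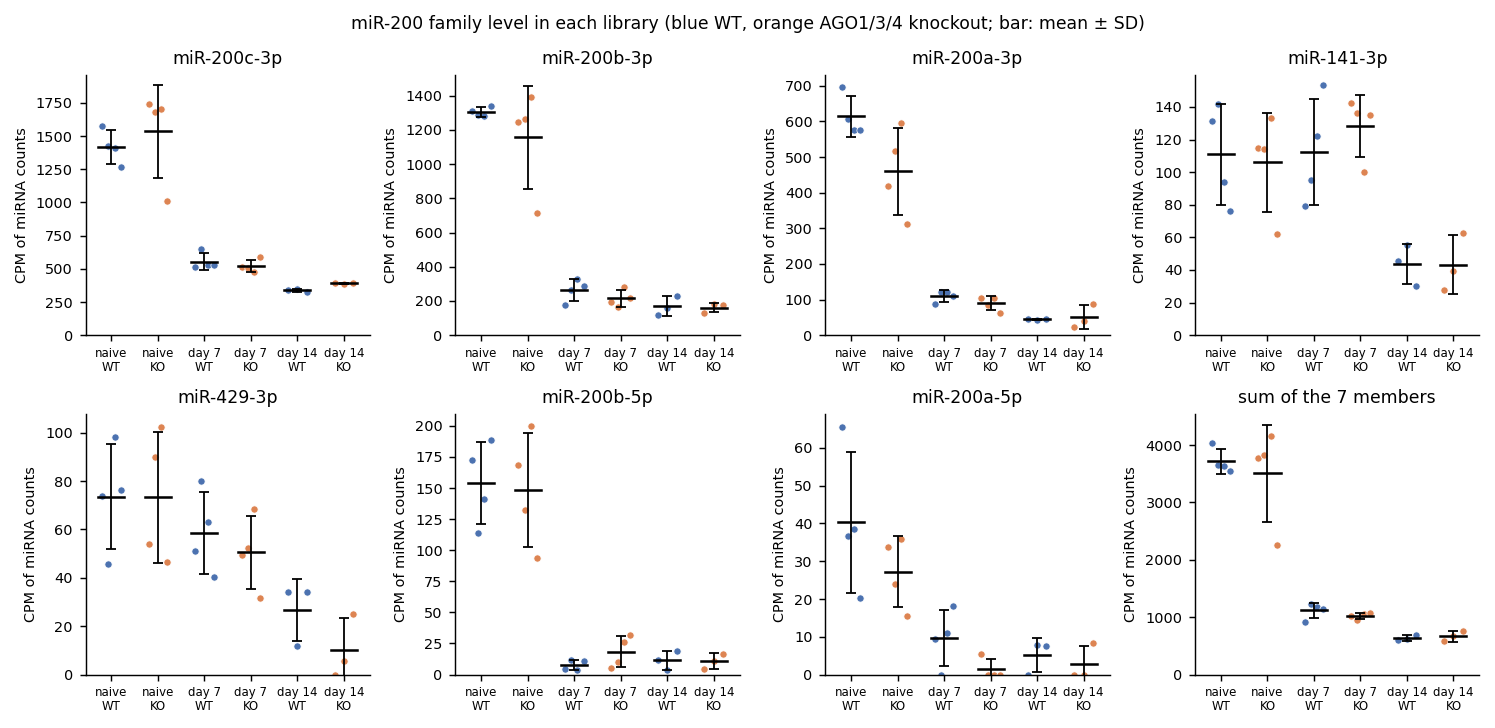
CPM of each family member and of their sum (y axis, each panel with its own scale from 0) in every library of the 6 groups (points), with the group mean and SD (bars, cut at 0). miR-200c-3p, miR-200b-3p, miR-200a-3p and miR-200b-5p drop between naive cells and day 7 in both genotypes, while miR-141-3p sits near 110 CPM in naive and day 7 WT cells and drops by day 14.

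In naive WT cells mmu-miR-200c-3p was the most abundant member, at 1421 CPM ± 127 (SD, n = 4), which placed it at rank 92 of the 844 miRNAs with a count in that group. mmu-miR-200b-3p followed at 1304 ± 26.8 CPM (rank 97), mmu-miR-200a-3p at 614 ± 57.3 CPM, mmu-miR-200b-5p at 154 ± 33.0 CPM, mmu-miR-141-3p at 111 ± 30.8 CPM, mmu-miR-429-3p at 73.6 ± 21.6 CPM and mmu-miR-200a-5p at 40.3 ± 18.8 CPM. The libraries of miR-200c-3p (1268 to 1580 CPM) and miR-200b-3p (1282 to 1339 CPM) overlapped. So did those of miR-200b-5p and miR-141-3p, and those of miR-141-3p and miR-429-3p. In these pairs the order also did not hold within every library. The ranges of miR-429-3p and miR-200a-5p overlapped too, but miR-429-3p was the higher in each of the 4 libraries. At day 14 miR-200c-3p was still the highest at 337 ± 9.80 CPM in WT (rank 175 of 927), and its libraries no longer overlapped those of miR-200b-3p at 170 ± 56.6 CPM.

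The passage from naive cells to Th2 cells at day 7 was tested with edgeR's quasi-likelihood test over 382 miRNAs, with Benjamini-Hochberg adjustment and a call at an adjusted p under 0.05. TMM normalisation was used for the tests, so a fold change is relative to the bulk of the other miRNAs. Of the 7 members, 6 passed the filter on low counts and miR-200a-5p did not. In WT cells 4 of these 6 members fell and none rose; over all tested miRNAs 76.4% were called, 36.9% as lower. Of these 4, miR-200b-5p passed the filter only through its naive libraries, in both genotypes, and so had to be lower later. Without it 3 of 5 fell. How often other miRNAs separate between times without overlap is not given here. Statements on overlap between times below therefore describe the members only.

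miR-200a-3p, with the seed AACACUG, was at 697, 608, 577 and 575 CPM in naive WT libraries 1 to 4 and at 88.3, 122, 122 and 110 CPM at day 7. The log2 fold change was -2.64 (SE 0.18, edgeR adjusted p = 2.21e-13). Its cluster mate miR-200b-3p, with the seed AAUACUG, went from 1309, 1284, 1282 and 1339 CPM to 177, 267, 329 and 289 CPM. That is a log2 fold change of -2.47 (SE 0.18, edgeR adjusted p = 1.03e-12). miR-200c-3p, from chromosome 6 and with the seed of miR-200b-3p, went from 1580, 1426, 1410 and 1268 CPM to 511, 652, 529 and 526 CPM. Its fall was smaller, with a log2 fold change of -1.53 (95% interval -1.81 to -1.26, adjusted p = 2.26e-11), an interval that does not meet that of miR-200b-3p (-2.85 to -2.09).

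The remaining members from the same loci gave different values. miR-141-3p, encoded beside miR-200c, was at 131, 142, 94.0 and 76.4 CPM in naive WT cells and at 79.0, 95.3, 122 and 153 CPM at day 7. The groups overlapped fully, and the log2 fold change of -0.15 (95% interval -0.62 to 0.33) did not pass (adjusted p = 0.565). miR-429-3p, encoded beside miR-200a and miR-200b, was at 73.8, 45.7, 98.3 and 76.4 CPM and then at 51.1, 80.1, 62.9 and 40.2 CPM. The groups overlapped, with a log2 fold change of -0.50 (95% interval -1.17 to 0.16, adjusted p = 0.159). These values rest on 15 to 32 counts of miR-141-3p per naive WT library and 10 to 23 of miR-429-3p. The intervals of both lie wholly above those of miR-200a-3p, miR-200b-3p and miR-200c-3p.

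The knockout libraries gave the same division into called and uncalled members. miR-200a-3p had a log2 fold change of -2.55 (SE 0.21, adjusted p = 1.07e-11), miR-200b-3p of -2.62 (SE 0.20, adjusted p = 1.65e-12) and miR-200c-3p of -1.75 (SE 0.14, adjusted p = 3.61e-12) between naive and day 7 cells. For miR-141-3p it was 0.02 (SE 0.26, adjusted p = 0.984) and for miR-429-3p -0.75 (SE 0.38, adjusted p = 0.0810). With miR-200b-5p, whose fall the filter had fixed, 4 of 6 tested members fell, and without it 3 of 5, where 34.3% of all tested miRNAs were called lower and 74.1% were called. Scaled to the STD entries, whose nature the labels do not state, miR-141-3p was called as higher at day 7 in the knockout (0.75, adjusted p = 0.0418). Without naive knockout replicate 1 the miR-429-3p change passed (-0.96, adjusted p = 0.0385).

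**Figure D2:**
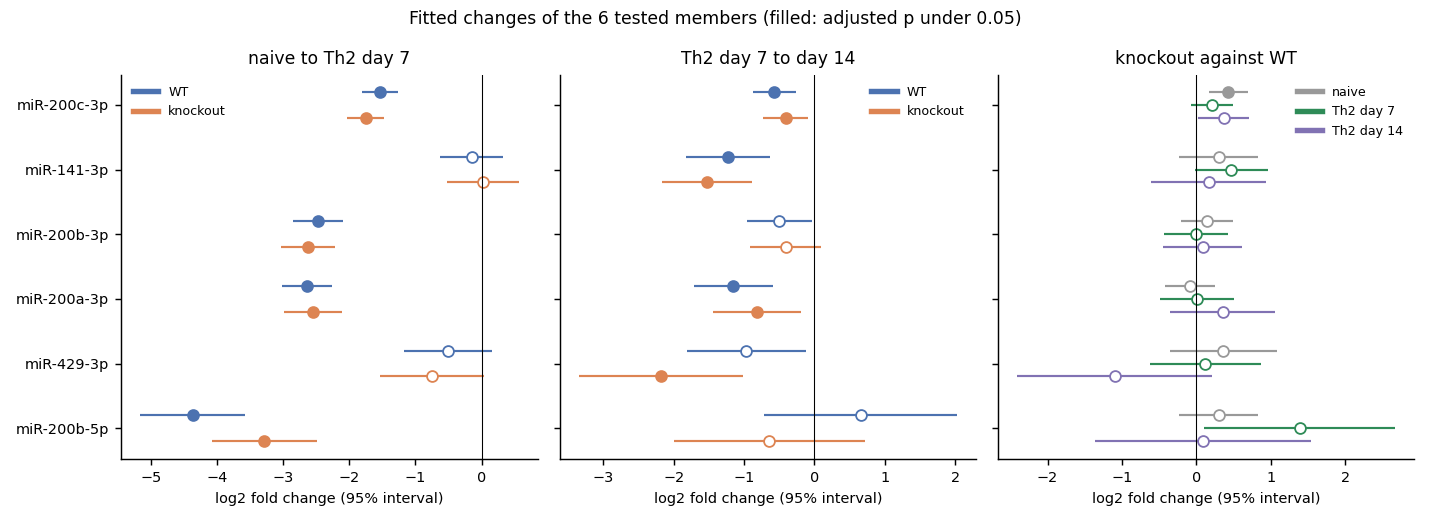
Log2 fold change (x axis) of the 6 tested members in the 2 steps of culture, by genotype, and in knockout against WT at each time, with 95% intervals from edgeR (lines) and a filled point where the adjusted p is under 0.05. Between naive cells and day 7 miR-200c-3p, miR-200b-3p and miR-200a-3p lie below -1 in both genotypes while miR-141-3p and miR-429-3p cross 0. miR-200b-5p also lies below -1, but it passed the filter only through naive libraries, which fixed its fall.

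Whether the genotypes differed in the size of these changes was tested as an interaction. None of the 6 members passed with edgeR for the step from naive to day 7, against 2.36% of all tested miRNAs, and none for the step from day 7 to day 14, against 12%; no member had an unadjusted p under 0.05 in either, and DESeq2 called none. For miR-200c-3p the genotype difference of the first change was -0.22 on the log2 scale (95% interval -0.61 to 0.17), and for miR-200b-3p it was -0.15 (-0.71 to 0.40).

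From day 7 to day 14 further falls were called. In WT cells 3 of 6 fell, against 24.9% called lower and 50% called in all. Without miR-200b-5p, over the filter's cut only in naive libraries, 3 of 5 fell. At day 14 miR-200a-3p reached this cut of 46.4 CPM in 0 of 3 WT libraries and miR-141-3p in 1 of 3. Both were tested only through earlier, higher libraries, so their falls, and with them the count of 3 of 5, are not independent of the filter. Of the called members, only miR-200c-3p was over the cut in all 3 day 14 WT libraries. miR-141-3p, not called at the earlier step, went to 45.3, 55.04 and 30.4 CPM, below all its day 7 libraries. Its log2 fold change was -1.23 (SE 0.29, edgeR adjusted p = 8.80e-04). miR-200a-3p went to 45.3, 43.2 and 45.6 CPM, which is -1.15 (SE 0.28, adjusted p = 9.37e-04), again below every day 7 library. miR-200c-3p went to 340, 346 and 327 CPM, also below every day 7 library, a change of -0.57 (SE 0.15, adjusted p = 0.00249).

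miR-200b-3p was at 121, 157 and 232 CPM in WT at day 14 and overlapped its day 7 values. Its change of -0.50 missed the threshold (adjusted p = 0.0630), and it passed without day 7 WT replicate 1 (adjusted p = 0.0244) or without day 14 WT replicate 3 (adjusted p = 0.00678). miR-429-3p was at 34.0, 11.8 and 34.2 CPM, below its day 7 libraries, with a change of -0.97 that also missed it (adjusted p = 0.0533) and passed without day 7 WT replicate 4 (adjusted p = 0.0316). With library size as the only scaling both passed, which made 5 of 6.

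In knockout cells 4 of 6 members fell over the same step, against 23.3% called lower and 44.8% called in all. Without miR-200b-5p 4 of 5 fell. At day 14 miR-429-3p reached the filter's cut in 0 of 3 knockout libraries, and miR-200a-3p and miR-141-3p in 1 of 3 each. These members too were tested only through earlier, higher libraries, so the count of 4 of 5 is not independent of the filter. Of the called members, only miR-200c-3p was over the cut in all 3 day 14 knockout libraries. miR-141-3p went from 142, 136, 100 and 135 CPM to 27.8, 39.4 and 62.9 CPM, with no overlap and a log2 fold change of -1.53 (SE 0.31, adjusted p = 2.35e-04). miR-429-3p went from 49.2, 52.4, 68.6 and 31.8 CPM to 0, 5.62 and 25.2 CPM, on 0, 1 and 6 counts, with a fitted change of -2.19 (SE 0.57, adjusted p = 0.00246). The calls of miR-200a-3p (-0.81, adjusted p = 0.0312) and miR-200c-3p (-0.41, adjusted p = 0.0341) were less secure. Both ended under 7 of 8 other settings, among them DESeq2 (adjusted p = 0.0644 and 0.0631) and library size scaling. Without day 14 knockout replicate 2 they stood at 0.302 and 0.0998.

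Loss of AGO1, AGO3 and AGO4 gave a single call among the family over the 3 times. In naive cells 1 of 6 members was called, against 18.3% of all tested miRNAs, 8.12% as higher. That member, miR-200c-3p, was at 1745, 1679, 1707 and 1011 CPM in knockout libraries 1 to 4 against the WT values above. On this plain CPM scale replicate 4 lay under all WT libraries while the other knockout libraries lay above them. After TMM normalisation the knockout libraries stood at 2060, 1841, 1890 and 1466 CPM and the WT libraries at 1438, 1381, 1305 and 1329 CPM. The log2 fold change was 0.43 (SE 0.13, adjusted p = 0.0224).

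That call depended on the scaling. TMM factors were 0.69 to 0.91 in naive knockout libraries and 0.96 to 1.10 in naive WT libraries. With library size as the only scaling the change of miR-200c-3p was 0.13 (adjusted p = 0.625), and scaled to the STD entries it was -0.33 (adjusted p = 0.247). The median of all tested miRNAs moved with it, from -0.05 under TMM to -0.33 and -0.77, and the split of calls into higher and lower went from 31 and 39 to 8 and 80 and to 0 and 204. The call also ended without naive WT replicate 1 (adjusted p = 0.0705), replicate 2 (0.0520) or replicate 3 (0.0612).

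The other members did not pass in naive cells. miR-200b-3p was at 1246, 1265, 1394 and 716 CPM in the knockout, a fitted change of 0.14 (95% interval -0.21 to 0.49), and miR-200a-3p at 418, 516, 594 and 311 CPM, a change of -0.08 (-0.42 to 0.26). miR-141-3p changed by 0.30 (-0.23 to 0.83), miR-429-3p by 0.36 (-0.35 to 1.08) and miR-200b-5p by 0.30 (-0.23 to 0.83). Scaled to the STD entries, miR-200a-3p was called as lower in the knockout (-0.83, adjusted p = 0.0139).

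At day 7 none of the 6 members was called with edgeR, against 14.4% of all tested miRNAs, and 1, miR-200b-5p, had an unadjusted p under 0.05. For miR-200b-3p the fitted change was -0.01 (95% interval -0.44 to 0.42), for miR-200a-3p 0.01 (-0.48 to 0.50) and for miR-200c-3p 0.21 (-0.08 to 0.49). The split of all calls into higher and lower was 33 and 22, and 4 and 43 with library size scaling. At day 14 none was called either, against 19.6%, and 1, miR-200c-3p, had an unadjusted edgeR p under 0.05. DESeq2 called none at day 7 or day 14. At day 7, however, it gave no adjusted p for miR-200b-5p, miR-141-3p and miR-429-3p, so it could not have called these. The day 14 knockout libraries of miR-200c-3p (394, 388 and 390 CPM) lay above all WT libraries, as groups did without overlap for 37.7% of all tested miRNAs, and its change of 0.37 (SE 0.17) had an adjusted p of 0.119. miR-429-3p stood at -1.10 (SE 0.64, adjusted p = 0.239) at day 14, and without knockout replicate 4, the library with 6 of its 7 counts in that group, it passed at -2.93 (adjusted p = 0.0328).

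The composition of the family within a library does not depend on how libraries are scaled. The chromosome 4 cluster, counted as its 5 members together, held 58.9% ± 2.24 (SD, n = 4) of the family counts in naive WT cells and 40.1% ± 3.73 at day 7, with 40.0% ± 7.501 (n = 3) at day 14. In knockout cells the shares were 53.0% ± 2.10, 36.5% ± 6.20 and 34.6% ± 6.95. The naive WT libraries (57.1% to 62.1%) lay above the naive knockout libraries (50.8% to 55.8%) without overlap, and naive knockout replicate 4, at 52.4%, lay within the range of its group. At day 7 and day 14 the genotypes overlapped. The share was not tested between genotypes. What it leaves to chromosome 6 includes miR-200c-3p, the member called in naive cells, so it is not separate evidence. In the same terms, the log2 ratio of miR-200c-3p to miR-200b-3p, which share a seed, was 0.12 ± 0.15 in naive WT and 0.42 ± 0.09 in naive knockout cells, and 1.09 ± 0.38 and 1.29 ± 0.36 at day 7. This ratio was not tested either.

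**Figure D3:**
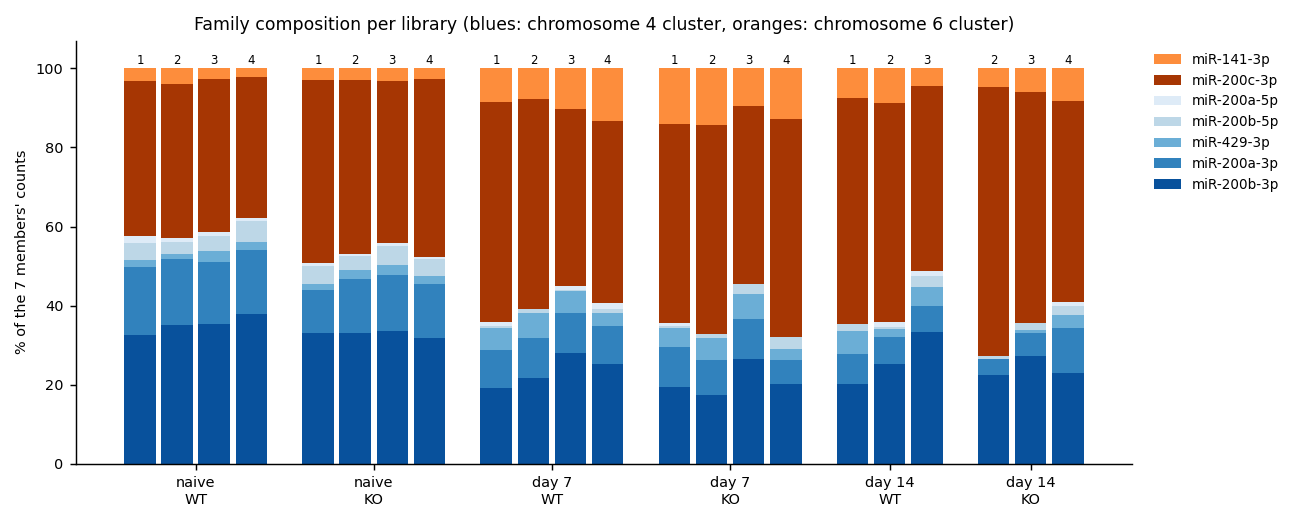
Share of each member in the summed counts of the 7 members (y axis, percent) in each library, grouped by time and genotype, with the replicate number above the bar. The blue chromosome 4 members fill 50.8% to 62.1% of naive libraries and 32.1% to 45.5% of day 7 libraries.

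Grouped by seed in place of locus, members with the seed AAUACUG took 75.3% ± 1.31 of the family counts in naive WT, 78.6% ± 3.03 at day 7 and 83.5% ± 1.52 at day 14. Those with the seed AACACUG took 19.5% ± 1.23, 19.9% ± 2.42 and 13.9% ± 2.63. Within the AACACUG group the balance shifted from miR-200a-3p (16.5% ± 0.63 in naive WT, 9.86% ± 0.37 at day 7) to miR-141-3p (2.97% ± 0.76, then 10.02% ± 2.48).

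Ratios between members of a locus showed the same counts in another form. These ratios were chosen after their values were seen, so their p-values below are not separate evidence. In WT cells the log2 ratio of miR-200c-3p to miR-141-3p was 3.69 ± 0.31 in naive libraries and 2.32 ± 0.47 at day 7, with no overlap. The ratio of miR-200b-3p to miR-429-3p went from 4.15 ± 0.44 to 2.15 ± 0.52 and that of miR-200a-3p to miR-429-3p from 3.07 ± 0.49 to 0.93 ± 0.35, again with no overlap. For each of the 3 the two-sided exact permutation test gave p = 0.0286, the smallest that 4 libraries against 4 allow, and 0.0762 after Benjamini-Hochberg adjustment over the 16 tests made. The ratio of miR-200b-3p to miR-200a-3p, 1.09 ± 0.13 and then 1.22 ± 0.21, overlapped (exact permutation p = 0.314).

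In knockout cells the ratio of miR-200c-3p to miR-141-3p went from 3.81 ± 0.11 to 2.005 ± 0.18 and that of miR-200a-3p to miR-429-3p from 2.60 ± 0.19 to 0.80 ± 0.21. That of miR-200b-3p to miR-429-3p went from 3.92 ± 0.35 to 2.04 ± 0.41. Each had no overlap and the same exact permutation p, raw and adjusted. The ratio of miR-200c-3p to miR-141-3p then went back up to 3.17 ± 0.56 by day 14 without overlap (exact permutation p = 0.0571, the smallest that 4 against 3 allow, and 0.102 after the same adjustment). The knockout ratios to miR-429-3p also rose by day 14 without overlap, that of miR-200b-3p to 4.33 ± 1.56 and that of miR-200a-3p to 2.50 ± 0.88. Their exact permutation p-values were the same, on 0, 1 and 6 miR-429-3p counts at day 14. In WT the ratio of miR-200c-3p to miR-141-3p was 2.94 ± 0.38 at day 14 and overlapped day 7 (exact permutation p = 0.171). Those to miR-429-3p overlapped as well (exact permutation p = 0.4 for miR-200b-3p and 0.8 for miR-200a-3p).

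**Figure D4:**
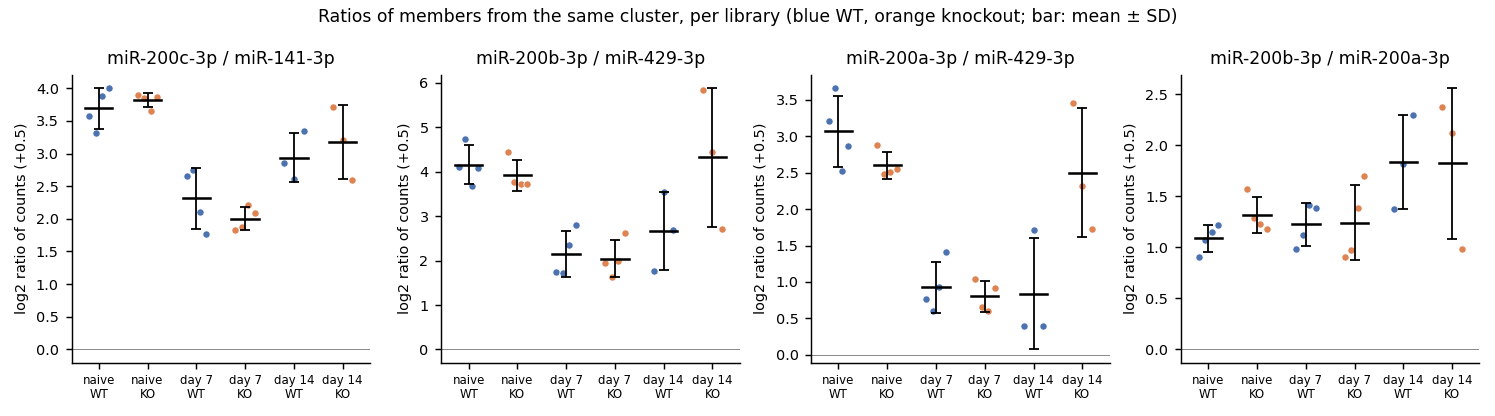
Log2 ratio of counts, with 0.5 added to each, between members encoded in the same cluster (y axis) in every library of the 6 groups (points), with the group mean and SD. The first 3 ratios drop between naive cells and day 7 in both genotypes, and the ratio of miR-200b-3p to miR-200a-3p overlaps between them.

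The 5p strands were the minor products of their hairpins. In naive WT libraries pooled, miR-200b-5p made up 137 of the 1300 counts of its hairpin, or 10.5% (95% exact binomial interval 8.92% to 12.3%), and miR-200a-5p 37 of 588, or 6.29% (4.47% to 8.57%). At day 7 the share of miR-200b-5p was 2.82% (1.22% to 5.47%) in WT, on 8 counts, and 7.5% (3.94% to 12.7%) in knockout, on 12 counts. Every naive WT library (8.17% to 12.3%) lay above every day 7 WT library (1.11% to 4.11%), whereas the knockout libraries overlapped between these times.

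miR-200a-5p was counted 37 times over the 4 naive WT libraries and 10 times at day 7, a ratio of counts per depth of 4.23 (95% exact binomial interval 2.06 to 9.54). In knockout libraries the counts were 17 and 1. The opposite strands of the other hairpins were nearly absent: miR-200c-5p had 0 counts beside 1276 of miR-200c-3p in naive WT cells, which allows a share of up to 0.289%, and miR-429-5p had 0 counts in all 22 libraries. miR-141-5p had 0 counts in naive WT cells, 5 at day 7 in WT and 7 in knockout.

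Because the family is known from epithelia, markers of other cell types were measured beside it. The epithelial list beyond the family had 10 miRNAs, of which 9 had a count in naive WT cells, and its summed level was 2501 to 3733 CPM in naive WT, 7625 to 8342 CPM at day 7 and 3708 to 4423 CPM at day 14 in WT. It was thus higher at day 7, where the family was lower. The sum was led by miR-192-5p, a miRNA of gut, liver and kidney, at 2107 ± 323, 7286 ± 203 and 3540 ± 482 CPM. miR-205-5p, a defining miRNA of stratified and glandular epithelium, had 0 to 2 counts in every library, miR-375-3p, of endocrine and secretory epithelium, 0 to 6, and miR-34b-5p, of ciliated cells, 2 counts in all. The tested markers of this list went both ways in WT from naive to day 7. miR-192-5p, miR-194-5p and miR-449a-5p rose by 1.61, 0.95 and 0.66 on the log2 scale (edgeR adjusted p = 2.01e-11, 4.29e-05 and 0.0457). miR-203-3p, described next, and miR-184-3p were lower. miR-184-3p, at -6.14 (edgeR adjusted p = 4.95e-06), was over the filter's cut only in naive libraries. The few miR-375-3p counts went from 4 or 5 per naive WT library to 1 at day 7.

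miR-203-3p, a miRNA of skin epithelium, was lower at day 7 than in naive cells, as the family was. It was at 640, 599, 556 and 469 CPM in naive WT libraries and 168 ± 23.8 CPM (n = 4) at day 7, a log2 fold change of -1.92 (SE 0.17, edgeR adjusted p = 3.10e-11), and at 42.1 ± 7.02 CPM (n = 3) at day 14. In knockout cells it was at 388 ± 132 CPM (n = 4) in naive cells, 121 ± 36.4 CPM (n = 4) at day 7 and 114 ± 31.3 CPM (n = 3) at day 14. Its change from day 7 to day 14 there was -0.08 (SE 0.24, edgeR adjusted p = 0.815), while the summed family level went from 1024 to 670 CPM. At day 14 it was higher in knockout than in WT (log2 fold change 1.59, SE 0.29, edgeR adjusted p = 1.40e-04). The part of epithelial cells in the family's levels was not tested.

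Other lists also differed between times. The summed level of the 5 T cell miRNAs, 108704 CPM in naive WT cells, was 60500 ± 2280 CPM (n = 4) at day 7 and 45727 ± 1709 CPM (n = 3) at day 14, or 54 and 72 times that of the family. In knockout cells it was 129743, 60877 and 46832 CPM, or 37, 59 and 70 times. The members of this list did not all fall. In WT, miR-181a-5p changed by -2.51 and then -1.65 on the log2 scale, and miR-150-5p by -0.87 and -0.99. miR-146a-5p changed by -0.53 and 0.07, and miR-142a-5p, called at neither step, by -0.23 and -0.16. miR-155-5p changed by 0.16 and then rose by 0.80 (edgeR adjusted p = 1.04e-05). miR-223-3p of myeloid cells was at 29.8 ± 10.1 CPM (n = 4) in naive WT and had 0 counts in all 8 libraries of day 7. miR-451a of red cells had 0 to 2 counts in each library, while miR-486a-5p was at 383 ± 131, 98.5 ± 23.2 and 196 ± 35.0 CPM in WT. The muscle list summed to 10.2 to 189 CPM in naive WT and the neural list to 4.27 to 131 CPM; at day 7 in WT the neural list was at 142 to 209 CPM. miR-122-5p of liver was at 265 ± 23.2, 838 ± 194 and 39.6 ± 11.7 CPM in WT, and the endothelial and stromal list, 7 miRNAs of which 6 had a count in naive WT, summed to 156 to 410, 985 to 1298 and 550 to 747 CPM. The part of these cell types in the family's changes was not tested.

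**Figure D5:**
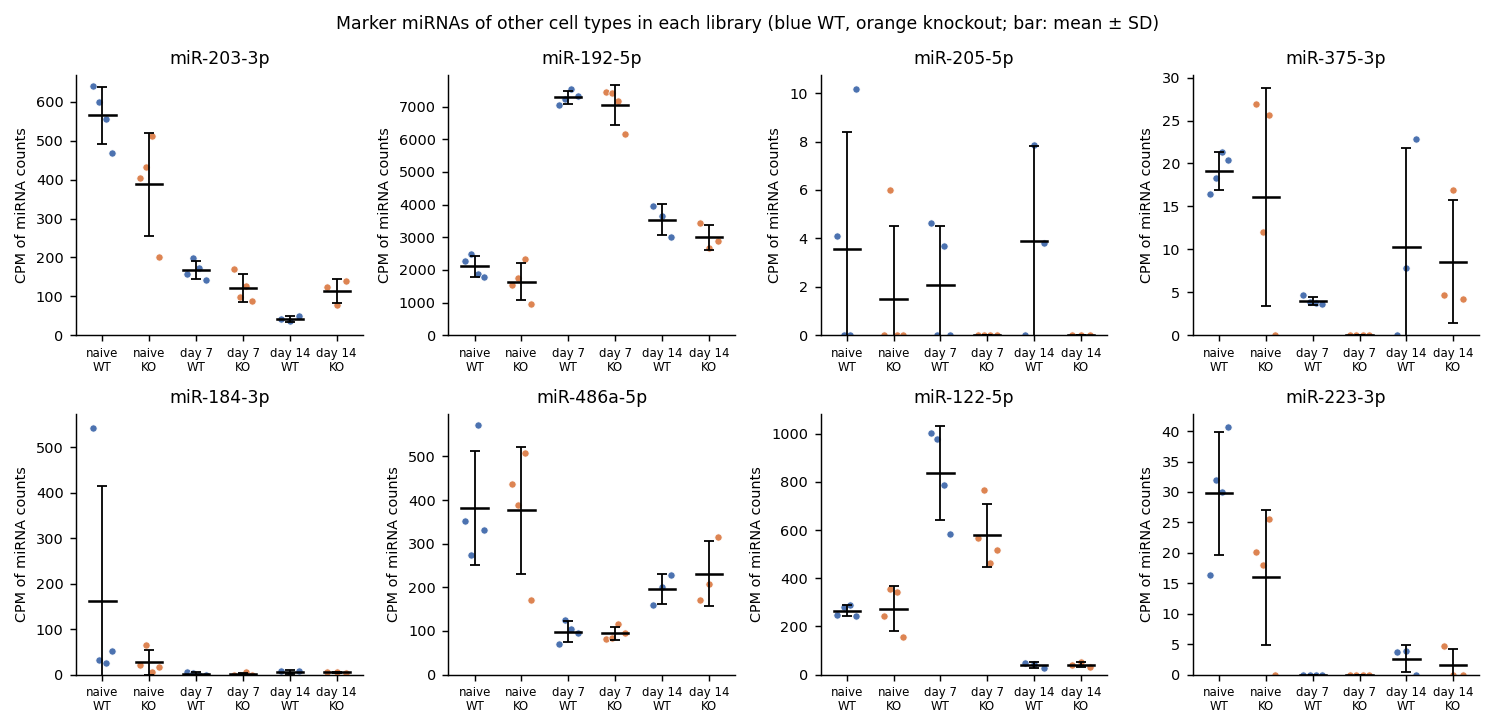
CPM (y axis, each panel with its own scale from 0) of 8 markers of other cell types in every library of the 6 groups (points), with the group mean and SD (bars, cut at 0). miR-203-3p drops from naive cells to day 7 as the family does, miR-192-5p and miR-122-5p rise, and miR-184-3p is high in naive WT replicate 1 alone.

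A pair of naive WT libraries stood apart in single markers. Replicate 1 held 132 of the 155 miR-184-3p counts of its group (542 CPM against 25.6 to 50.9 CPM), 46 of 54 miR-1a-3p counts and all 23 miR-124-3p counts. Replicate 3 held 67 of 77 miR-144-3p counts and the highest miR-486a-5p level (573 CPM). The summed family level of replicate 1 was the highest of its group at 4029 CPM, and that of replicate 3, 3641 CPM, lay within the range of the others. Without naive WT replicate 1 and naive knockout replicate 4 together, 3 of 5 members other than miR-200b-5p fell from naive to day 7 in each genotype, as with all libraries. miR-141-3p then had a change of -0.07 in knockout cells in place of 0.02.

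A second experiment of the series, with the genotypes CD4Cre;R26LSLeYFP and CD4Cre;R26LSLeYFP;AGO2f/f, was too shallow to compare the family. Its 14 libraries held 596 to 58357 miRNA counts, and the 7 members together took 79 counts, in 12 of the libraries. Pooled over libraries, the family stood at 527 CPM (95% exact binomial interval 193 to 1146) in naive Cre controls and 316 CPM (173 to 531) in naive AGO2f/f cells. In Th2 cells, for which the sample labels give 5 days of culture and the series text 7, the pooled levels were 175 CPM (116 to 255) and 279 CPM (191 to 393). The naive intervals lie below the pooled naive WT value of the AGO1/3/4 experiment, 3729 CPM (3604 to 3858). Those of Th2 cells lie below its pooled Th2 day 7 WT value, 1129 CPM (1065 to 1196). The intervals leave out the spread between libraries: the naive Cre libraries stood at 347, 0 and 1391 CPM, on 3, 0 and 3 counts. The experiments differ also in depth, genotype, labelled day of culture and STD share, which was 32.0% to 86.7% in the second. These differences between experiments were not tested.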

How the data were processed

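miRNAs were counted in 36 libraries, of which 22 were compared. The authors deposited raw read counts, with an entry per miRNA locus. According to the submitters' processing notes the build was GRCm38; no label or header names an aligner or a counting tool. Each file held 2119 entries, of which 9, named STD, name no miRNA; they took 35.7% to 56.9% of the counts of the 22 libraries and entered neither library sizes nor tests. Of several loci of a mature miRNA, the entry with the highest total was used, which left 1966 names. Replicates differed by more than sampling noise in all 30 pairs (lowest chi-square 2.85 per degree of freedom).

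Counts were tested with edgeR 4.0.16 in R 4.3.3: quasi-likelihood, TMM, filterByExpr at 10 counts, Benjamini-Hochberg adjustment over 382 miRNAs, and a single fit of the 22 libraries with a mean per group. The filter needs 46.4 CPM in at least 3 libraries. The SE is that implied by the F statistic. Alternatives were DESeq2 1.42.0, other scalings, no filter, all locus entries, a replicate block, the compared groups alone and leaving out libraries; leaving out 2 naive libraries together was chosen after seeing the data. Tests were tried on simulated data. The members, the marker lists and the rule for named miRNAs (all 7 members, the opposite strands, leading markers and the 3 most similar miRNAs per member) were chosen with earlier results of these data known.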

Additional observations from a re-analysis of the deposited data

Results flagged for a closer look

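Single libraries far from the rest of their group were looked for in the 28 sets of 4 values that the 7 members gave, where chance flags about 1 in 20. There were 4. The library of naive knockout replicate 4 was the lowest of its group for miR-200c-3p (1011 CPM), and it was also the shallowest of the experiment. Th2 day 7 WT replicate 2 was the highest for miR-200c-3p (652.1 CPM). Th2 day 7 knockout replicate 3 was the lowest for miR-141-3p (100.2 CPM). Th2 day 7 knockout replicate 1 was the highest for miR-200a-5p (5.468 CPM), where it had the only count.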

How the results depend on the processing

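Counts of called members were followed under 9 other settings and 22 removals of a library; of 42 member changes 16 were called, and a called change turned its sign once. The naive AGO1/3/4 count of 1 became 0 with library size scaling and with no filter, and 0 to 1 over removals. The day 14 AGO1/3/4 count of 0 became 0 to 1 over removals, and the day 7 to day 14 WT count of 3 became 5 with library size scaling. The day 7 to day 14 knockout count of 4 became 2 with library size, STD scaling, no filter, all locus entries, the replicate block and DESeq2, 1 with the compared groups alone, and 2 to 4 over removals. Same-numbered libraries did not pair (no comparison had every correlation above 0.1; range -0.31 to 0.15), and the replicate block changed no other count.

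STD scaling moved the median of all tested miRNAs from 0.11 to 0.73 for the WT step from naive to day 7 and from -0.02 to -0.63 for knockout against WT at day 7. Under it these log2 changes of knockout against WT turned negative: in naive cells miR-200c-3p (-0.33, the called one), miR-200b-3p (-0.60), miR-200b-5p (-0.43), miR-141-3p (-0.44) and miR-429-3p (-0.35); at day 7 miR-200a-3p (-0.60), miR-200c-3p (-0.42), miR-141-3p (-0.14) and miR-429-3p (-0.48); at day 14 miR-200a-3p (-0.0750), miR-200b-3p (-0.37), miR-200b-5p (-0.33), miR-200c-3p (-0.0837) and miR-141-3p (-0.26). From naive to day 7 in WT, miR-141-3p turned to 0.45 and miR-429-3p to 0.12; in knockout cells miR-141-3p was called as higher (0.75, adjusted p = 0.0418), which made the count of 4 called members 5. With no filter that count was also 5, in WT too, with miR-200a-5p lower. Library size turned miR-200b-3p in naive cells (-0.15), miR-200a-3p (-0.29), miR-200c-3p (-0.0949) and miR-429-3p (-0.18) at day 7, miR-200b-3p (-0.0721) and miR-200b-5p (-0.0529) at day 14, and the WT step of miR-141-3p (0.0266). All locus entries turned miR-200a-3p at day 7 (-0.0089), miR-200b-3p (-0.0224) and miR-200b-5p (-0.0135) at day 14, and the WT step of miR-141-3p (0.0241). At day 7 miR-200a-3p was -0.0760 with no filter and -0.0509 with the compared groups alone; at day 14 miR-200b-5p was -0.0482 with the block. Over removals, knockout against WT ran from -0.20 to 0.0212 for miR-200a-3p in naive cells; at day 7 from -0.15 to 0.0878 for miR-200a-3p, -0.18 to 0.10 for miR-200b-3p and -0.0725 to 0.30 for miR-429-3p; at day 14 from -0.32 to 0.72 for miR-200a-3p, -0.12 to 0.35 for miR-200b-3p, -0.35 to 0.61 for miR-200b-5p and -0.17 to 0.43 for miR-141-3p. For miR-141-3p from naive to day 7 in knockout it was -0.0665 to 0.12, and -0.0677 without both naive libraries. DESeq2 gave no adjusted p for 3 members at day 7. Depth limits miR-429-3p and the 5p strands, at most 23 and 42 counts a library.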

Other observations

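For each tested member the miRNAs with the most similar pattern over the 22 libraries were found among the 376 other tested miRNAs, as correlations of log2 TMM CPM. These are descriptions, since the libraries fall into naive and cultured groups and share depth and scaling. Strands of miR-181 family hairpins, 5p for 2 and 3p for 2, came first for 4 of the 6 members. Other places among the 3 most similar to these 4 were held by miR-467c-5p, miR-467a-5p, miR-669o-5p and miR-211-5p. Margins were small: for miR-200c-3p, r was 0.963 with miR-467c-5p against 0.966 with miR-181a-5p. miR-200a-3p was most like miR-181c-5p (r = 0.98, rho = 0.95, n = 22), miR-200b-3p like miR-181a-2-3p (r = 0.98, rho = 0.80), miR-200c-3p like miR-181a-5p (r = 0.97, rho = 0.90) and miR-200b-5p like miR-181d-3p (r = 0.96, rho = 0.81). Once group means were removed, r was 0.56, 0.48, -0.52 and 0.46. miR-141-3p was most like miR-466f-5p (r = 0.83, rho = 0.75) and miR-429-3p like miR-99a-5p (r = 0.84, rho = 0.80).

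Between members, r over the 22 libraries was 0.97 for miR-200a-3p with miR-200b-3p and 0.96 for miR-200b-3p with miR-200c-3p, which lie on different chromosomes. It was 0.60 for miR-200c-3p with miR-141-3p, which lie in the same cluster, and 0.66 for miR-200b-3p with miR-429-3p. With group means removed, r was 0.38, 0.22, 0.30 and 0.23 for these pairs.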
